A study of Mus musculus with 3 samples.

Results

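The genes described are 38 mouse genes of DNA replication and S phase. They were chosen by symbol, and each one had a single row in both deposited tables, which list 23283 genes or groups of genes. RNA came from CD4+ T cells that bind the 2W peptide on I-A(b), an MHC class II molecule, sorted from the inguinal and popliteal lymph nodes that drain the injected footpads. The mice were C57BL/6 and had received 2W1S peptide with LPS in incomplete Freund's adjuvant (IFA) 7 days earlier. The 3 groups were wild type (WT), MyD88 T-KO, in which the gene for MyD88, a signalling adaptor of the IL-1 and Toll-like receptors, is deleted in T cells, and IL6ra T-KO, in which the gene for the IL-6 receptor alpha chain is. In the library labelled IL6ra T-KO the Il6ra transcript was at 65.1 FPKM beside 57.1 in WT and thus not lower, so that library is named by its label only. A level over the whole gene cannot show whether some of its exons were deleted. Each group was 1 library, pooled from 4 experiments and from 15 to 30 mice, so no difference below has a replicate check and no test between genotypes was possible. The sources used here do not give the Cre line behind the deletions or the age of the mice. Depth, estimated from the steps that single fragments leave in low values, was about 21.2 to 25.1 M fragments per library, uncorrected for fragment length, and an estimated 119 to 10655 fragments lay behind each value of the 38 genes.

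Before a cell divides, the MCM2-7 helicase is loaded onto origins by CDC6 and CDT1, is switched on with CDC45 and the GINS complex, and unwinds DNA for the polymerases, which the PCNA clamp holds in place. Ribonucleotide reductase, thymidylate synthase and thymidine kinase supply the nucleotides. Cyclin E and E2F transcription factors set the start of the process, and antigen-driven CD4+ T cells pass through it many times as they expand. The genes were grouped here by these roles.

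Replication genes stood slightly above WT in both knockout libraries. The ratio given for a gene is log2((knockout FPKM + 1)/(WT FPKM + 1)), where FPKM is fragments per kilobase of transcript, scaled by the authors to library size. In MyD88 T-KO, 35 of the 38 genes lay above 0 with a median ratio of 0.17, or 1.12-fold, where 54.3% of all 10215 genes with a mean FPKM of at least 1 lay above 0 and their median was 0.013. In the IL6ra T-KO-labelled library, 35 of 38 lay above 0 with a median of 0.33, or 1.25-fold, where 42.6% of 10299 genes lay above 0 and their median was -0.038. A ratio above 0.25 was reached by 8 of 38 genes in MyD88 T-KO (6.26% of all genes) and by 28 of 38 in the IL6ra T-KO-labelled library (14.3% of all genes). No replication gene differed by a ratio of 1 or more in size in either comparison, a size reached by 0.431% and 1.81% of all genes. Both comparisons share the WT library, so their directions are not independent. The WT values of the IL6ra T-KO table are those of the MyD88 T-KO table times 1.02, and each knockout was set against its own table.

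Most single genes differed by less than the error of the authors' model. The implied SE is the authors' deposited log2 fold change divided by their test statistic. It belongs to the ratio without the added 1 and is no measure of the spread between mice. Over the 38 genes its median was 0.19 for MyD88 T-KO and 0.33 for the IL6ra T-KO-labelled library. The deposited fold change was larger than 1 implied SE for 15 and 17 of the genes, and larger than 2 implied SEs for 2 and 0. The authors' deposited tables marked none of the 38 as significant, where they marked 0.878% and 0.969% of all tested genes, so the count is near that background. An unadjusted p below 0.05 stood there for 2 genes in the first comparison (4.31% of all tested genes) and for 0 in the second (5.8% of all tested genes).

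The labels and the cell content of the libraries were checked beside these values. Myd88 was at 19.5 FPKM in MyD88 T-KO and 49.8 FPKM in WT. It was also lower in the IL6ra T-KO-labelled library, at 34.2 FPKM beside 51.0 in WT, a ratio of -0.56 (implied SE 0.28). For Il6ra the ratio in the IL6ra T-KO-labelled library was 0.18 with an implied SE of 0.27, over the whole gene. The T cell genes Cd3e and Cd4 were at 711 and 415 FPKM in WT and at 749 and 462 FPKM in MyD88 T-KO, and the summed level of 13 T cell markers was 4440 against 4330 FPKM there and 4020 against 4435 FPKM in the IL6ra T-KO-labelled library. Each of 14 B cell markers exceeded WT in both, with a summed level of 857 against 472 FPKM and 694 against 484 FPKM. Cd8a and Cd8b1, markers of CD8 T cells, summed to 21.96 against 11.4 FPKM and 14.2 against 11.7 FPKM. The germinal centre B cell gene Rgs13 was at 0.0716 FPKM and 0.0669 FPKM in MyD88 T-KO and WT and was listed at 0 in the IL6ra T-KO-labelled library. Of 5 plasma cell markers, 3 lay above and 1 below 0 in MyD88 T-KO (median 0.016, with Igj at 0.90 and Prdm1 at -0.37), and 4 above and 1 below in the other comparison (median 0.56, with Igj at 2.24 and Xbp1 at -0.17). Medians of the lists for plasma, NK, gamma delta T, macrophage and dendritic, neutrophil, erythroid and stromal cells ran from -0.27 to 1.00 in MyD88 T-KO and from -0.50 to 0.56 in the other comparison. The part of these other cells in the replication values was not tested. In pooled bulk RNA, more dividing cells and more of these transcripts in each dividing cell cannot be told apart.

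**Figure D1:**
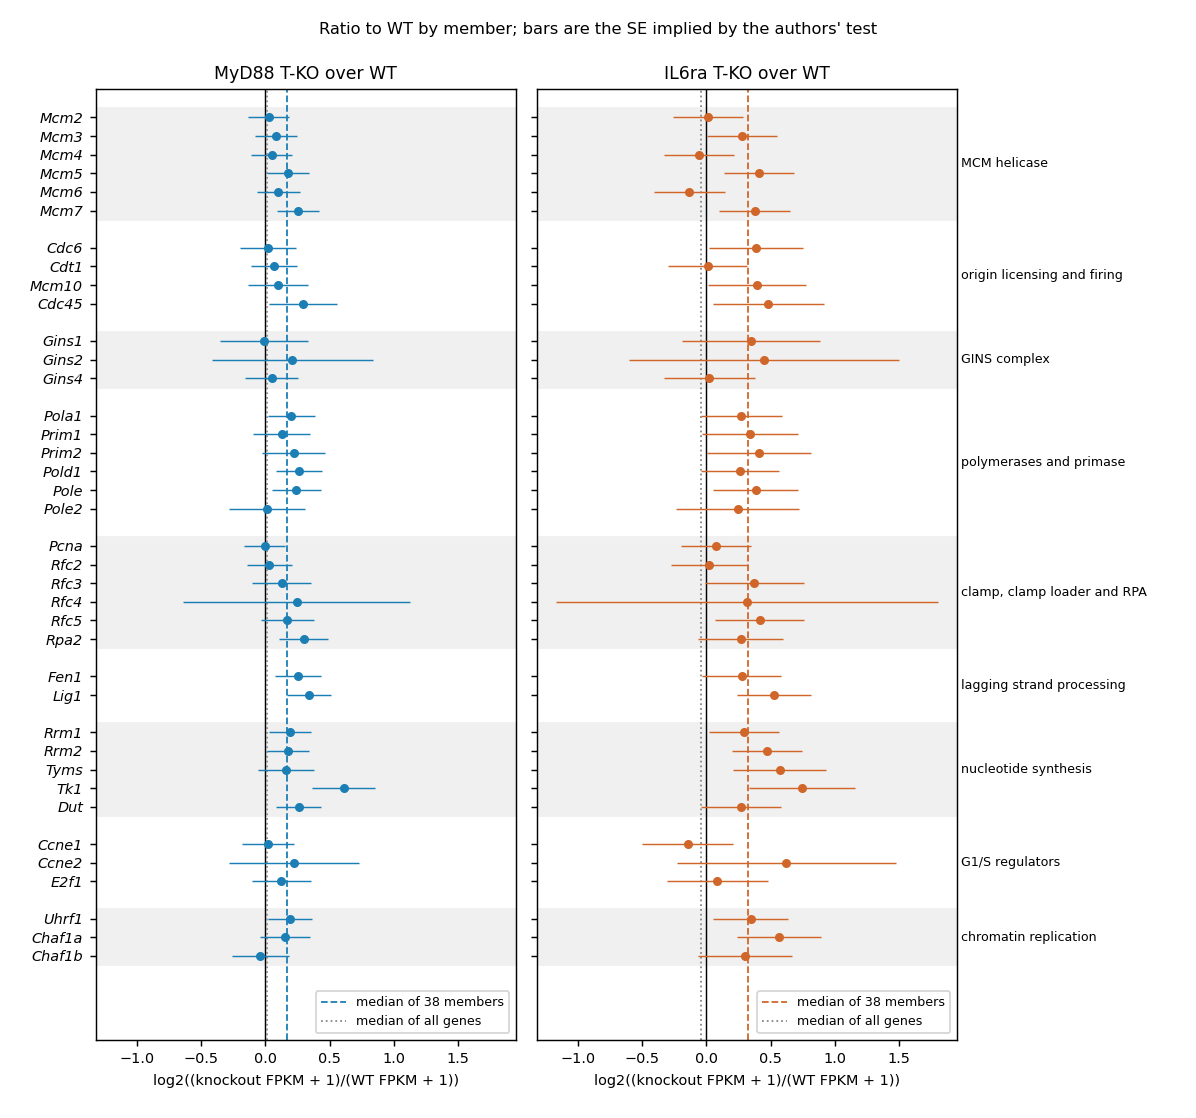
Log2 ratio to WT of each of the 38 replication genes (points) in both comparisons, with the implied SE of the authors' model as bars, the median of the 38 genes dashed and that of all genes with a mean FPKM of at least 1 dotted. Most points lie to the right of 0, with Tk1 farthest in both panels at 0.61 and 0.74, and many bars cross 0.

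The MCM2-7 genes, which encode the 6 subunits of the replicative helicase, all lay above 0 in MyD88 T-KO, from 0.026 to 0.26 with a median of 0.093. In the second comparison they were divided, with 4 above and 2 below 0 and a median of 0.15. Mcm6 (chromosome 1, 128331591 to 128359656, mm10) was the most abundant, at 112 FPKM in MyD88 T-KO beside 104 in WT, a ratio of 0.10 (implied SE 0.16), and at 97.5 FPKM in the IL6ra T-KO-labelled library beside 107 in WT, a ratio of -0.13 (0.28). Its direction therefore differed between the knockouts, and both ratios were smaller than their implied SEs. Mcm4 followed the same pattern, with ratios of 0.050 and -0.058. Mcm7 stood at 44.4 FPKM in MyD88 T-KO beside 37.0 in WT, a ratio of 0.26 (implied SE 0.16), and at 49.5 FPKM in the IL6ra T-KO-labelled library beside 37.9 in WT, a ratio of 0.38 (0.28). Mcm5 stood at 37.6 FPKM in MyD88 T-KO beside 33.1 in WT, a ratio of 0.18 (implied SE 0.16), and at 45.4 FPKM in the IL6ra T-KO-labelled library beside 33.9 in WT, a ratio of 0.41 (0.27). Mcm7 had the highest ratio of the 6 in MyD88 T-KO and Mcm5 in the other comparison. Mcm2 stood at 39.4 FPKM in MyD88 T-KO and 38.7 FPKM in WT, with ratios of 0.026 and 0.015, so its level was nearly the same in the 3 libraries. Mcm3 had ratios of 0.084 and 0.28. The microRNA genes Mir106b, Mir25 and Mir93, which lie in the Mcm7 locus, were listed at 0 in these polyA libraries.

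The 4 genes that load and start the helicase all lay above 0 in both comparisons, with medians of 0.082 and 0.39. Cdt1, which delivers MCM2-7 to origins, was at 19.5 FPKM in MyD88 T-KO beside 18.6 in WT, a ratio of 0.066 (implied SE 0.18), and at 19.2 FPKM in the IL6ra T-KO-labelled library beside 19.04 in WT, a ratio of 0.010 (0.31). It was close to WT in both. Cdc6, the ATPase that recruits CDT1, was at 4.37 FPKM in MyD88 T-KO beside 4.29 in WT, a ratio of 0.022 (implied SE 0.22), and at 6.05 FPKM in the IL6ra T-KO-labelled library beside 4.399 in WT, a ratio of 0.39 (0.36). Mcm10, which takes part in activating the helicase and belongs to another family than MCM2-7, had ratios of 0.097 and 0.39. Cdc45, a subunit of the active helicase, had the highest ratios of these 4 genes, at 8.46 FPKM in MyD88 T-KO beside 6.72 in WT, a ratio of 0.29 (implied SE 0.26), and at 10.02 FPKM in the IL6ra T-KO-labelled library beside 6.88 in WT, a ratio of 0.48 (0.43). The GINS genes encode the third component of that helicase. Gins4 was the most abundant and stood near WT, at 18.2 FPKM in MyD88 T-KO beside 17.5 in WT, a ratio of 0.048 (implied SE 0.20), and at 18.2 FPKM in the IL6ra T-KO-labelled library beside 17.95 in WT, a ratio of 0.022 (0.35). Gins2 was at 9.0 FPKM in MyD88 T-KO beside 7.64 in WT, a ratio of 0.21 (implied SE 0.63), and at 11.1 FPKM in the IL6ra T-KO-labelled library beside 7.83 in WT, a ratio of 0.45 (1.05). Its exons share 2758 of 3900 bases with Gse1 on the opposite strand, and the sources used here do not give whether the libraries kept strand, so its reads cannot be told apart from those of Gse1, which had ratios of 0.041 and 0.18. Gins1 was just below WT in MyD88 T-KO, at 5.15 against 5.20 FPKM, and above it in the IL6ra T-KO-labelled library, at 7.08 against 5.33 FPKM, a ratio of 0.35.

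All 6 polymerase and primase genes lay above 0 in both comparisons. Their medians were 0.21 and 0.30, and in the IL6ra T-KO-labelled library they spanned only 0.24 to 0.41. Pold1, the catalytic subunit of polymerase delta, was the most abundant, at 15.7 FPKM in MyD88 T-KO beside 12.96 in WT, a ratio of 0.26 (implied SE 0.18), and at 16.1 FPKM in the IL6ra T-KO-labelled library beside 13.3 in WT, a ratio of 0.26 (0.30). Pole, the catalytic subunit of polymerase epsilon, had ratios of 0.24 and 0.38, whereas Pole2, its second subunit, was at 4.96 FPKM in MyD88 T-KO beside 4.91 in WT, a ratio of 0.012 (implied SE 0.30), and at 6.14 FPKM in the IL6ra T-KO-labelled library beside 5.03 in WT, a ratio of 0.24 (0.48). Pola1, which begins each new strand together with primase, had ratios of 0.20 and 0.27. The primase genes followed, with Prim2 at 7.63 FPKM in MyD88 T-KO beside 6.40 in WT, a ratio of 0.22 (implied SE 0.25), and at 9.02 FPKM in the IL6ra T-KO-labelled library beside 6.55 in WT, a ratio of 0.41 (0.41). Prim1 had ratios of 0.13 and 0.34.

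The clamp gene Pcna (chromosome 2, 132249286 to 132253180) had the highest level of the 38 genes and nearly the same level in every library, at 183 FPKM in MyD88 T-KO against 184 FPKM in WT and at 198 FPKM in the IL6ra T-KO-labelled library against 188 FPKM in WT. Its ratios were -0.0057 and 0.074, with implied SEs of 0.16 and 0.27. The small subunits of the clamp loader RFC, which opens the PCNA ring, divided in the same way. Rfc2, the most abundant of them, stayed at 32.8 FPKM against 32.1 FPKM and at 33.5 FPKM against 32.9 FPKM. Rfc5 was at 15.0 FPKM in MyD88 T-KO beside 13.2 in WT, a ratio of 0.17 (implied SE 0.21), and at 18.4 FPKM in the IL6ra T-KO-labelled library beside 13.5 in WT, a ratio of 0.41 (0.35). Rfc3 had ratios of 0.13 and 0.37, and Rfc4 0.24 and 0.31. Rfc4 had the widest implied SEs of the 38 genes, 0.89 and 1.49, and shares 175 exon bases with Eif4a2. Rpa2, a subunit of the protein that coats single-stranded DNA, was at 21.6 FPKM in MyD88 T-KO beside 17.4 in WT, a ratio of 0.30 (implied SE 0.19), and at 21.6 FPKM in the IL6ra T-KO-labelled library beside 17.8 in WT, a ratio of 0.27 (0.33). Of the enzymes that finish the lagging strand, the ligase gene Lig1 (chromosome 7, 13258967 to 13311427) was at 26.2 FPKM in MyD88 T-KO beside 20.5 in WT, a ratio of 0.34 (implied SE 0.17), and at 30.7 FPKM in the IL6ra T-KO-labelled library beside 21.0 in WT, a ratio of 0.53 (0.29). In the authors' deposited tables its unadjusted p was 0.0376 and 0.0573, and its q-value 0.997 and 0.933. Its locus also holds 6330408A02Rik, which was at 0.927 against 0.771 FPKM and at 1.20 against 0.789 FPKM. Fen1, the nuclease that trims Okazaki fragments, was at 22.4 against 18.6 FPKM and at 23.3 against 19.1 FPKM, with ratios of 0.26 and 0.27.

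Nucleotide synthesis genes had the highest median of the role groups in the IL6ra T-KO-labelled library, 0.47, and all 5 lay above 0.25 there. In MyD88 T-KO all 5 lay above 0, with a median of 0.19. Tk1 (chromosome 11, 117815519 to 117839908), the thymidine kinase of S phase, had the highest ratio of the 38 genes in both comparisons. It was at 21.8 FPKM in MyD88 T-KO beside 14.0 in WT, a ratio of 0.61 (implied SE 0.24), and at 24.6 FPKM in the IL6ra T-KO-labelled library beside 14.3 in WT, a ratio of 0.74 (0.41). WT was thus the lowest of the 3 libraries, and the FPKM of the knockout libraries were 1.56 and 1.72 times as high. Without the added 1 FPKM, Ccne2 was slightly higher than Tk1 in the second comparison, at 1.73 times WT. The authors' deposited tables gave Tk1 an unadjusted p of 0.00834 and 0.0579 and a q-value of 0.435 and 0.935. Tk1 shares 83 of its 1440 exon bases with Afmid on the opposite strand, whose ratios were 0.024 and 0.071. Rrm2, the regulated subunit of ribonucleotide reductase, was at 59.95 FPKM in MyD88 T-KO beside 53.0 in WT, a ratio of 0.17 (implied SE 0.16), and at 75.8 FPKM in the IL6ra T-KO-labelled library beside 54.3 in WT, a ratio of 0.47 (0.27). Its partner Rrm1 had ratios of 0.19 and 0.29. Tyms, which makes thymidylate, was at 6.58 FPKM in MyD88 T-KO beside 5.77 in WT, a ratio of 0.16 (implied SE 0.22), and at 9.27 FPKM in the IL6ra T-KO-labelled library beside 5.92 in WT, a ratio of 0.57 (0.36). Dut, which removes dUTP, was at 32.5 FPKM in MyD88 T-KO beside 27.0 in WT, a ratio of 0.26 (implied SE 0.17), and at 33.5 FPKM in the IL6ra T-KO-labelled library beside 27.6 in WT, a ratio of 0.27 (0.31).

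Genes that open S phase had mixed ratios, with medians of 0.13 and 0.084. Ccne1, which encodes cyclin E1, was at 12.2 FPKM in MyD88 T-KO beside 11.97 in WT, a ratio of 0.022 (implied SE 0.20), and at 11.0 FPKM in the IL6ra T-KO-labelled library beside 12.3 in WT, a ratio of -0.14 (0.35), the lowest ratio of the 38 genes in that comparison. Ccne2, which encodes cyclin E2, had the lowest level of all 38 and was at 3.34 FPKM in MyD88 T-KO beside 2.71 in WT, a ratio of 0.23 (implied SE 0.50), and at 4.82 FPKM in the IL6ra T-KO-labelled library beside 2.78 in WT, a ratio of 0.62 (0.85). Ccne2 shares 336 exon bases with Ints8, which itself lay below 0, at -0.11 and -0.14. How far reads of Ints8 enter the Ccne2 values was not tested, so these remain uncertain. E2f1 had ratios of 0.13 and 0.084. Among genes that restore chromatin behind the fork, Uhrf1, which guides maintenance of DNA methylation, was at 29.7 FPKM in MyD88 T-KO beside 25.9 in WT, a ratio of 0.19 (implied SE 0.17), and at 34.0 FPKM in the IL6ra T-KO-labelled library beside 26.5 in WT, a ratio of 0.35 (0.29). Chaf1a and Chaf1b encode subunits of the histone chaperone CAF-1. Chaf1b was just below WT in MyD88 T-KO and above it in the second comparison, at 8.31 FPKM in MyD88 T-KO beside 8.57 in WT, a ratio of -0.039 (implied SE 0.22), the lowest ratio of the 38 in that comparison, and at 11.0 FPKM in the IL6ra T-KO-labelled library beside 8.78 in WT, a ratio of 0.30 (0.36). Chaf1a was at 8.27 FPKM in MyD88 T-KO beside 7.32 in WT, a ratio of 0.16 (implied SE 0.19), and at 11.6 FPKM in the IL6ra T-KO-labelled library beside 7.50 in WT, a ratio of 0.57 (0.33).

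**Figure D2:**
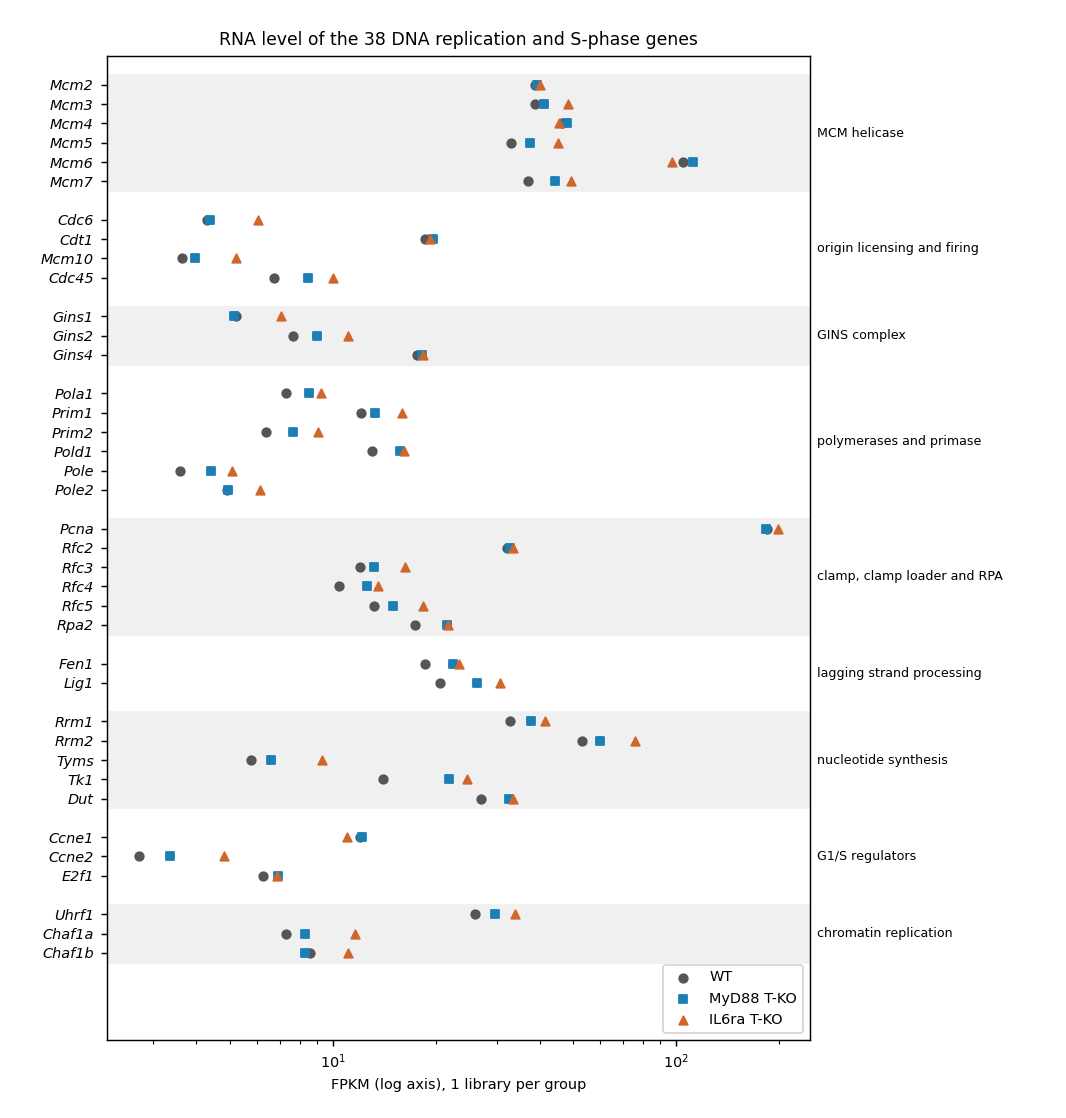
FPKM (log axis) of the 38 replication genes in the 3 libraries, with WT and MyD88 T-KO from one deposited table and IL6ra T-KO from the other, whose scale is 1.02 times higher. Levels run from 2.71 FPKM for Ccne2 to 184 FPKM for Pcna in WT, and the symbols of a gene lie close together beside that range.

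The ordered ratios of the IL6ra T-KO-labelled library showed a step. Its lower side held 9 genes, Ccne1, Mcm6, Mcm4, Cdt1, Mcm2, Gins4, Rfc2, Pcna and E2f1, all at 0.084 or below. The remaining 29 began at 0.24 with Pole2, so a gap of 0.16 without any gene lay between. This division was made after the values were seen and was not tested. In MyD88 T-KO these 9 genes had ratios from -0.0057 to 0.13 with a median of 0.048, and the other 29 a median of 0.19. The WT library enters both ratios, so this is no independent check of the division. In the lower part of the ordered MyD88 T-KO ratios the widest gap was 0.028. It lay elsewhere, between Rfc3 and Chaf1a, with 17 genes below it.

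The spread of levels among the 38 genes was far wider than any difference between libraries, and their order was nearly kept. The rank correlation of levels between MyD88 T-KO and WT was 0.99 over the 38 genes, and between the IL6ra T-KO-labelled library and WT also 0.99. Subunits that act in equal numbers were not at equal FPKM. In WT, Mcm6 was 3.15 times Mcm5, the lowest of MCM2-7, and Rfc2 was 3.07 times Rfc4, the lowest of RFC. Within polymerase epsilon, Pole4, which was not among the 38, was 10.4 times Pole at 37.3 against 3.58 FPKM. These factors were 2.98, 2.61 and 9.36 in MyD88 T-KO. In the IL6ra T-KO-labelled library Mcm6 was 2.43 times its lowest partner, there Mcm2, Rfc2 2.47 times Rfc4, and Pole4 6.84 times Pole.

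Level and ratio were compared with the level read from the library outside the ratio, so that WT did not enter both. In MyD88 T-KO the rank correlation over the 38 genes was 0.059, and over 10207 genes it was 0.0015. In the IL6ra T-KO-labelled library it was -0.37 over the 38 genes and -0.30 over 10287 genes, so abundant genes had lower ratios there in general. The 19 more abundant replication genes had a median ratio of 0.27 and the 19 less abundant 0.38. Genes of 1 library share its depth and composition, and these coefficients describe the libraries.

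**Figure D3:**
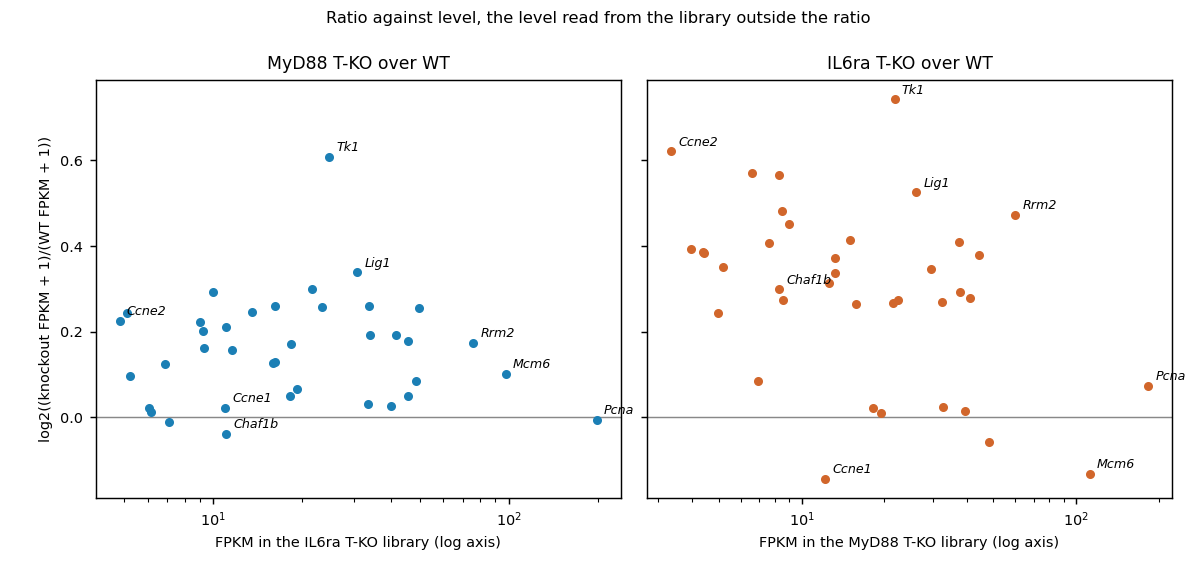
Log2 ratio to WT of the 38 replication genes against FPKM (log axis) in the knockout library that does not enter the ratio, one panel for each comparison and 1 point for each gene. The MyD88 T-KO panel shows no trend (rank correlation 0.059). In the IL6ra T-KO panel the abundant genes Pcna and Mcm6 lie near or below 0 at 0.074 and -0.13, whereas Rrm2, also abundant, lies at 0.47.

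Genes of the same process outside the 38 had median ratios closer to WT. Their ratios were not less spread, with standard deviations over genes of 0.13 and 0.25 beside 0.13 and 0.21 for the 38. Both lists were chosen with earlier results of these data known, so the difference in medians is no independent result. Of 51 other replication genes listed, 49 were in the tables. Their median was 0.085 in MyD88 T-KO with 34 above 0 (54.3% of all genes). In the IL6ra T-KO-labelled library it was 0.056 with 30 above 0 (42.6% of all genes). None was marked significant by the authors, who marked 0.878% and 0.969% of all tested genes. The highest in MyD88 T-KO were Gmnn, which encodes the licensing inhibitor geminin, at 0.35 and the topoisomerase gene Top2a at 0.35. Top2a (0.59) and the chromatin remodeller gene Hells (0.58) were highest in the IL6ra T-KO-labelled library. At the other end there lay Dck, which encodes the salvage enzyme deoxycytidine kinase, at -0.43, the origin recognition gene Orc2 at -0.36 and Rpa1, the large partner of Rpa2, at -0.35. In that comparison 15 of the 49 lay above 0.25 (14.3% of all genes) and 4 below -0.25 (1581 of all 10299 genes).

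Regulators of the E2F and RB pathway differed in both directions. Of 26 listed, 19 lay above 0 in MyD88 T-KO (54.3% of all genes) and 15 in the IL6ra T-KO-labelled library (42.6% of all genes). Their medians were 0.058 and 0.093. Ccna2, the cyclin of S and G2 phase, was at 31.7 against 23.7 FPKM and at 36.9 against 24.2 FPKM, ratios of 0.41 and 0.58. Its partner Cdk1 had ratios of 0.41 and 0.54. The CDK inhibitor genes of the list did not share a direction. Cdkn1a, which encodes p21, was at -0.44 and -0.56 (implied SEs 0.23 and 0.40). Cdkn1b, which encodes p27, was at -0.22 and -0.40 (0.16 and 0.27). Cdkn2c lay above WT in both comparisons, at 0.39 and 0.22 (0.20 and 0.34). Cdkn2d was at 0.033 and -0.50 (0.18 and 0.32). Ccnd2, a cyclin of G1, was highest in MyD88 T-KO at 0.47 but stood at -0.085 in the other comparison.

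Genes of the later G2 and M phases had higher medians than the replication genes. All 26 were above 0 in both comparisons, with medians of 0.38 and 0.60 beside 0.17 and 0.33 for the 38 replication genes. Of them 21 and 25 exceeded 0.25. Of all genes, 54.3% and 42.6% lay above 0, and 6.26% and 14.3% above 0.25. The authors' deposited tables marked 2 and 0 of the 26 genes as significant, beside 0.878% and 0.969% of all tested genes. B cell markers, with medians of 0.83 and 0.47, lay above WT beside them, and their part was not tested. Ccnb1, the mitotic cyclin B1, had ratios of 0.74 and 0.61, and Kif2c, a mitotic kinesin, 0.30 and 0.77. Cenpa, the centromeric histone, was lowest at 0.082 and 0.069. The difference between the lists could not be tested with 1 library in a group.

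**Figure D4:**
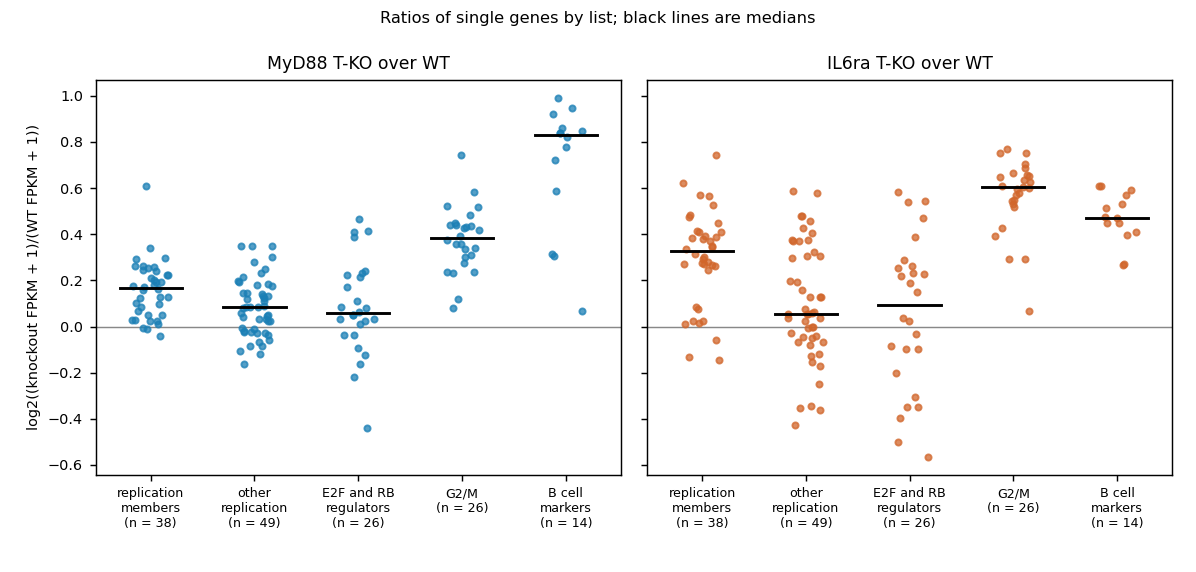
Log2 ratio to WT of single genes (points) and medians (black lines) for the 38 replication genes, 49 other replication genes, 26 E2F and RB regulators, 26 G2 and M phase genes and 14 B cell markers. The medians of the replication genes, 0.17 and 0.33, lie below those of the G2 and M phase genes, 0.38 and 0.60, in both panels.

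Promoter sequence was examined as a feature that the choice of genes and the expression values did not use. E2F factors bind GC-rich sites after a run of T, and these were searched for as TTTCGCGC, TTTGGCGC or TTTCCCGC on either strand, in windows from 250 bases before to 50 bases after each RefSeq gene start (GRCm38.p6, the assembly of mm10). Of the 38 genes, 30 had a window. A match was found for 12 of 30 (40.0%), for 11 of 43 other replication genes (25.6%), for 4.57% of 7376 genes with a mean FPKM of at least 1, and for 2.12% of all 27025 genes in the table. Counted by window, 12 of 35 (34.3%) held a match, and 1.84% of all windows. None of 23 G2 and M phase genes held one. For those genes the CCAAT box (CCAAT, either strand) was found in 18 of 23 (78.3%) and the CHR element (TTTGAA, either strand), both known from mitotic promoters, in 17 of 23 (73.9%). The replication genes held them in 16 of 30 (53.3%) and 3 of 30, and the 7376 genes in 43.7% and 14.0%. An E2F match overlapped a CCAAT or CHR match in 1 of the 35 windows. Windows for Ccne2, Gins1, Gins2, Gins4, Mcm4, Pole, Prim2 and Rfc2 were not used here.

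For each of the 12 genes with an E2F match, the match nearest to its gene start is shown, 1 for each gene. Such matches are the sequence feature found in 4 of the 5 MCM2-7 genes that had a window. Each is printed in the direction of the motif with up to 10 bases on each side. Capitals mark that match only, so a further match in the flanks, as in Rfc3, is in lower case.
Mcm3 (chr1:20820276-20820303, + strand): cttcccaagtTTTCCCGCcacggaagtt
Mcm6 (chr1:128359735-128359762, - strand): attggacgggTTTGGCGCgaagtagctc
Mcm7 (chr5:138171850-138171877, - strand): ggtgacgacgTTTCGCGCcaatttcggt
Rfc3 (chr5:151651191-151651218, + strand): acagtagagtTTTCCCGCgagcgcgaaa
Lig1 (chr7:13278842-13278869, - strand): gccacacagaTTTCGCGCgcactttggc
Pold1 (chr7:44548766-44548786, + strand): gctTTTCCCGCcacaagatac
Mcm5 (chr8:75109350-75109377, - strand): ggctggacgtTTTGGCGCgaaagttctt
Cdt1 (chr8:122568037-122568064, + strand): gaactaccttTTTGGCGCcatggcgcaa
Cdc6 (chr11:98908003-98908030, - strand): ccccaggcgaTTTCCCGCtctccaccgg
Pole2 (chr12:69228163-69228190, + strand): atgttcgcgaTTTGGCGCcaccgccgac
Uhrf1 (chr17:56304118-56304145, + strand): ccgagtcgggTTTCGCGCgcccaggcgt
Pola1 (chrX:93632276-93632303, + strand): cgggagtgcaTTTGGCGCcctgtgatga
Of these, 8 read on the strand opposite to the gene and 4 on its own strand, and 7 lay at or after the annotated start. In Mcm5 and Mcm6 a TTTGGCGC and a TTTCGCGC on opposite strands overlapped. The 12 genes with a match had median ratios of 0.15 and 0.31, and the 18 without one 0.17 and 0.31.

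The whole windows of the most abundant helicase, clamp, nucleotide synthesis and G1/S genes are shown for comparison, with E2F matches in capitals.
Mcm6 (chr1:128359656-128359955, - strand): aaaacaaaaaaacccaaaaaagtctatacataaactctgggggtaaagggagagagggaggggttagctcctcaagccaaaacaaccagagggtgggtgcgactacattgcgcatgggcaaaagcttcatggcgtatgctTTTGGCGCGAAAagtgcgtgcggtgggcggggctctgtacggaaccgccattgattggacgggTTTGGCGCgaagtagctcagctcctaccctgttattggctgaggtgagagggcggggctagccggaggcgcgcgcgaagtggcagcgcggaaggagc
Pcna (chr2:132253131-132253430, - strand): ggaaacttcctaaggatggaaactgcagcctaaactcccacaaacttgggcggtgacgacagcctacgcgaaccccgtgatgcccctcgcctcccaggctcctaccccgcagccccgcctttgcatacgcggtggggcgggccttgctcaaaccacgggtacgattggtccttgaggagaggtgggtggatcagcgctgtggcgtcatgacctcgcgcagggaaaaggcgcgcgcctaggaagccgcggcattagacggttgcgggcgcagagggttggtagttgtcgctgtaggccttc
Rrm2 (chr12:24708004-24708303, + strand): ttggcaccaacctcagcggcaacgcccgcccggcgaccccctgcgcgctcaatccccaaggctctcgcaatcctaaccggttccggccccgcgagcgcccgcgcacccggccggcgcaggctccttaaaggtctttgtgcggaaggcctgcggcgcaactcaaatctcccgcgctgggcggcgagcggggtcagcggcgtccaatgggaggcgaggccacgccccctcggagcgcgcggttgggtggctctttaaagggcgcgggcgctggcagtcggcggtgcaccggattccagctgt
Ccne1 (chr7:38107441-38107740, - strand): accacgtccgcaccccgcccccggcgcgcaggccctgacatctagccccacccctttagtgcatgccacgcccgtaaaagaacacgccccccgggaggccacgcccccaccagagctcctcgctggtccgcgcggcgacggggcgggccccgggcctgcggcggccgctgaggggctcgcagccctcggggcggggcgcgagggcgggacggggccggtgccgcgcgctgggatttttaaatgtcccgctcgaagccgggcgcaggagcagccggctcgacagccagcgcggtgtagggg
Mcm6 held 3 matches, and the windows of Pcna, Rrm2 and Ccne1 held none of these letters.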

How the data were processed

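RNA from 3 pooled libraries was compared, grouped by their titles. The authors deposited 2 tables of expression in FPKM, per the file headers, which follow the Cuffdiff layout, with 1 table for each knockout library beside WT. TopHat, Cufflinks and the mm10 build are named in the submitters' processing notes, with versions not given in the sources used here. Libraries were made from polyA RNA, per the labels' protocols. The p-values, q-values and log2 fold changes of the authors' deposited tables compare single libraries, and the fold change runs from knockout to WT and was turned round.

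The 4 sheets of each table were joined and the 38 genes were matched by symbol. Table starts were raised by 1 to be 1-based. Ratios used a pseudocount of 1 FPKM, which understates differences of low genes, and were computed within a table. Genes with a mean FPKM of at least 1 served as background, and all 38 genes passed this. Depth came from low genes with 1 transcript in GENCODE M21. Python 3.11.15, pandas 2.3.3, numpy 2.4.6 and scipy 1.17.1 were used. The ratio code was run on values built from the same formula without noise, which checks the arithmetic only. Alternatives were other pseudocounts, minima, scalings and means.

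The 38 genes, the lists and the alternatives were chosen with earlier results of these data known. Genes given in full were the most abundant and those with the highest and lowest ratio of each role group. Protein sequences were not used here, so the planned protein comparison was not run. The values of 1 marker gene are not reported here.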

Additional observations from a re-analysis of the deposited data

How the results depend on the processing

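The medians of the 38 replication genes kept their sign under all 7 alternatives, from 0.11 to 0.18 in MyD88 T-KO and from 0.24 to 0.38 in the IL6ra T-KO-labelled library. Some alternatives could not have turned it. Dropping the background minimum leaves these medians unchanged, and another pseudocount cannot change the sign of a ratio. With a pseudocount of 5 FPKM the MyD88 T-KO medians were 0.11 for these genes, 0.056 for other replication genes and 0.037 for E2F and RB regulators, and 2 and 17 replication genes exceeded 0.25 in the 2 comparisons. In MyD88 T-KO that count was 8 in the main setting and 12 with a pseudocount of 0.1 FPKM. It was 4 with centred ratios and 5 with upper quartile scaling. Centring used the median ratio of genes with a mean FPKM of at least 5. In the IL6ra T-KO comparison the median of other replication genes was 0.11 when centred, 0.11 with upper quartile scaling and 0.098 as a mean, and that of E2F and RB regulators 0.15, 0.15 and 0.055, or 0.031 with a mean FPKM of at least 5. That minimum leaves 2 of the 3 G1/S genes, Ccne1 and E2f1, and turned their median to -0.030. Among all values recomputed, 197 stayed close, 32 moved and 1 turned in sign. The 197 include values that an alternative could not change. No paired analysis was possible because each group has 1 library. With 1 library in each group no replicate could be left out. The implied SE exceeded 0.5 for Gins2, Rfc4 and Ccne2, which share exons with other genes, in both tables, and for Gins1 in the second. The estimated fragments behind a value, from 119 upward, limit its counting precision.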
